A study of Rattus norvegicus with 9 samples.

Results

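The expression of 9 genes of the Hippo pathway, its output and the CCN family was followed in cultured rat cardiac fibroblasts taken at 3 ages. The genes, chosen by name, were the kinases Lats1 and Lats2, the transcriptional co-activators Yap1 and Wwtr1 (which encodes TAZ), 4 genes of the CCN family (Cyr61, Ctgf, Wisp1 and Wisp2, now also called Ccn1, Ccn2, Ccn4 and Ccn5) and Ankrd1, a target gene that cardiomyocytes also express. All 9 were found among the 17337 genes of the count table, and all 9 were among the 11337 genes left after the filter on low counts.

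The cells came from hearts of Sprague Dawley rats, a stock for which the labels give no genetic change. There were 3 libraries of fetal cells (embryonic day 18), 3 of neonatal cells (postnatal day 1) and 3 of adult cells (7 weeks old). All were primary cells at passage 0 that had been grown to confluence in a medium with 10% fetal bovine serum and 0.1 mM ascorbic acid, with no other treatment in the labels, so every value below is that of a culture and not of the heart. The labels do not say how many animals or cultures stand behind the libraries of an age, so the p-values measure the spread between these libraries, which may be technical.

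The Hippo pathway is a kinase cascade that holds back growth. LATS1 and LATS2 phosphorylate YAP and TAZ, which keeps them out of the nucleus. Without that phosphorylation, YAP and TAZ enter the nucleus and switch on genes through the TEAD factors, DNA-binding proteins that lack an activation domain of their own. In fibroblasts YAP and TAZ respond to stiffness and cell shape, and Ctgf, Cyr61 and Ankrd1 are among the genes most often used to read their activity. Wisp1 and Wisp2 are followed here as further genes of the CCN family. Much of this control is on the protein and not on the amount of mRNA, and only mRNA was measured here.

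The promoters of Ctgf and Cyr61 are shown because these genes are the usual read-outs of TEAD binding. RefSeq's promoter table for the GRCr8 assembly (250 bases before to 50 bases after each start) held 5 of the 9 genes: Lats1, Yap1, Wwtr1, Cyr61 and Ctgf. Capitals mark GGAATG, the core letters that TEAD factors bind, or CATTCC, the same letters on the other strand. The Ctgf window is chr1:22624565-22624864 and the Cyr61 window is chr2:237225640-237225939, both on the minus strand and printed 5′ to 3′ in the direction of transcription.
Ctgf: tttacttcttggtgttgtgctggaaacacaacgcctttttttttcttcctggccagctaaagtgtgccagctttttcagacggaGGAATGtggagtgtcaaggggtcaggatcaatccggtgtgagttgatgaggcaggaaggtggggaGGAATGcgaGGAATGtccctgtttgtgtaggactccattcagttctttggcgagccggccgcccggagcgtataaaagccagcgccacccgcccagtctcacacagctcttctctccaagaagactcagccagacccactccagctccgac
Cyr61: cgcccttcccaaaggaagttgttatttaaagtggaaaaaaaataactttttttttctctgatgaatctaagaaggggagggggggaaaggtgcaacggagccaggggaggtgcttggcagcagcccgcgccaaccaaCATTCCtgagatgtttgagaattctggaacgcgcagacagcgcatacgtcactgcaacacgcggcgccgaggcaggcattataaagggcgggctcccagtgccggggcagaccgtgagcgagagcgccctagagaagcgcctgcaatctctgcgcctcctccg

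The Ctgf window held GGAATG 3 times, with first letters 166, 101 and 92 bases before the start, and the Cyr61 window held it 1 time, 113 bases before the start on the opposite strand. Of the 33469 promoters in the table, 14.2% held GGAATG at least 1 time on either strand, 1.24% at least 2 times and 0.0956% (32 promoters) at least 3 times. The Yap1 window held 1 match, 116 bases before the start, and those of Lats1 and Wwtr1 held 0. The TATA letters TATAAA, which overlapped no GGAATG, were found 31 bases before the start of Ctgf and 34 bases before that of Cyr61, and in 14.2% of all promoters on either strand. The AP-1 letters TGANTCA were in 0 of the 5 windows, against 7.33% of all promoters, and the CArG box, the site of serum response factor, was in 0 of the 5, against 1.64%. These are matches of letters, binding was not measured, and their part in the mRNA levels below was not tested.

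Each library had between 13392825 and 22850491 counts assigned to genes, and every adult library (at most 13810825) had fewer than any fetal or neonatal library (at least 16241217). Fetal replicate 3 stood apart from the other fetal libraries. The chi-square per degree of freedom of its counts against theirs was 90.0 and 97.3, where fetal replicates 1 and 2 gave 3.94. Adult replicate 1 gave 25.8 and 43.0 against adult replicates 2 and 3, which gave 6.76 with each other. The neonatal pairs gave 2.05 to 2.76, so the spread within an age differed between the ages. None of the 9 replicate pairs agreed within counting error. Of 10 fibroblast markers, 9 were well above the floor at every age, while Col1a2 stayed between 0.0531 and 0.976 CPM (counts per 1000000 assigned counts, after scaling). The reads behind that low value were not examined, so it is not taken to mean that Col1a2 mRNA was absent. Col1a1 and Col3a1 gave nearly all of the summed level of the 10 markers. Together they stood at 22094 to 48878 CPM in fetal, 65331 to 71589 in neonatal and 20047 to 27729 in adult libraries. The other 8 summed to 1558 to 1613, 2551 to 2605 and 2093 to 2189 CPM. Between adult and fetal cells 4 of the 10 (Pdgfra, Dcn, Thy1 and Tcf21) were called higher and 3 (Col1a1, Lum and Ddr2) lower. The other cell types' markers moved with age. Macrophage markers summed to 14.9 to 69.0 CPM in fetal, 163 to 180 in neonatal and 4176 to 5831 in adult libraries, and cardiomyocyte markers to 7284 to 10929, 5164 to 5736 and 305 to 320 CPM. Endothelial markers summed to 23.6 to 30.4, 37.0 to 40.8 and 112 to 124 CPM, of which Tie1 alone gave 68.6 to 72.5 in the adult libraries, while Kdr was called lower in adult than in fetal cells. Mural cell markers summed to 1058 to 1920, 2527 to 2615 and 294 to 603 CPM, and epicardial or mesothelial markers other than Krt8 to 62.3 to 76.1, 64.6 to 74.2 and 40.7 to 57.7 CPM. Krt8 stood at 10.2 to 144, 2.32 to 2.92 and 0.674 to 1.23 CPM. The part of these shifts in the results below was not tested except where a value is given, and in such bulk libraries fewer cells of a type and less RNA per cell cannot be told apart.

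**Figure D1:**
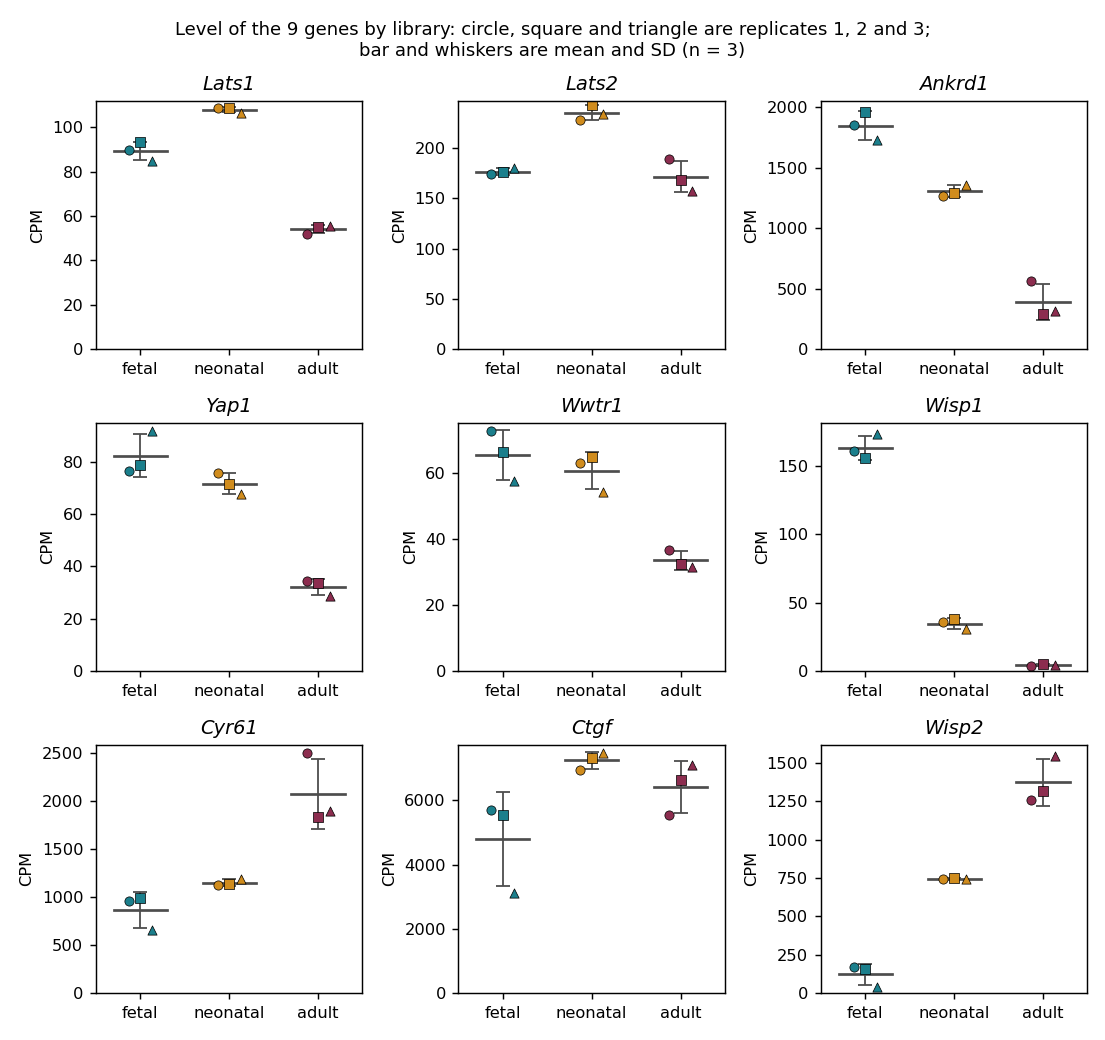
Level of each of the 9 genes in every library, in CPM on a linear axis from 0, by age; circle, square and triangle are replicates 1, 2 and 3, and the bar with whiskers is the mean and SD (n = 3). Wisp1 stands at 156 to 173 CPM in fetal and 3.90 to 5.13 in adult libraries, Wisp2 runs the other way, and the fetal triangle lies below the other fetal points for Ctgf, Cyr61 and Wisp2.

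Yap1, Wwtr1, Lats1, Wisp1 and Ankrd1 fell from fetal to adult cultures while Cyr61 and Wisp2 rose, so the kinases, co-activators, CCN genes and Ankrd1 did not move together. Calls were made with edgeR's quasi-likelihood test over all 11337 genes, at a Benjamini-Hochberg adjusted p under 0.05. Between neonatal and fetal cells 4 of the 9 genes were called, 3 higher (Lats1, Lats2 and Wisp2) and 1 lower (Wisp1), where 36.3% of all tested genes were called. Between adult and fetal cells 7 of 9 were called, 2 higher (Cyr61 and Wisp2) and 5 lower (Lats1, Yap1, Wwtr1, Wisp1 and Ankrd1), where 70.5% of all genes were called. Between adult and neonatal cells 7 of 9 were called, 1 higher (Cyr61) and 6 lower (Lats1, Lats2, Yap1, Wwtr1, Wisp1 and Ankrd1), where 63.5% of all genes were called. Without fetal replicate 3 the counts were 5, 7 and 8, where 40.6%, 74.8% and 72.2% of all genes were called. Without any 1 of the neonatal libraries 21.5 to 22.6% of all genes were called between neonatal and fetal cells, and 4 of the 9 genes in each case. Nothing particular to the 9 genes is read from these counts. The 3 comparisons share libraries and are not independent of each other.

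In size, 5 of the 9 genes were called with a change of at least 1 on the log2 scale between adult and fetal cells (32.4% of all tested genes), 3 between adult and neonatal cells (25.0%) and 2 between neonatal and fetal cells (11.2%). The libraries of the ages compared did not overlap for 8, 7 and 8 of the 9 genes (neonatal versus fetal, adult versus fetal, adult versus neonatal), against 57.4%, 71.8% and 76.1% of all tested genes. The median log2 fold change of the 9 genes was 0.27 for neonatal versus fetal, -0.72 for adult versus fetal and -0.86 for adult versus neonatal cells, against -0.005, -0.013 and -0.006 over all tested genes.

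**Figure D2:**
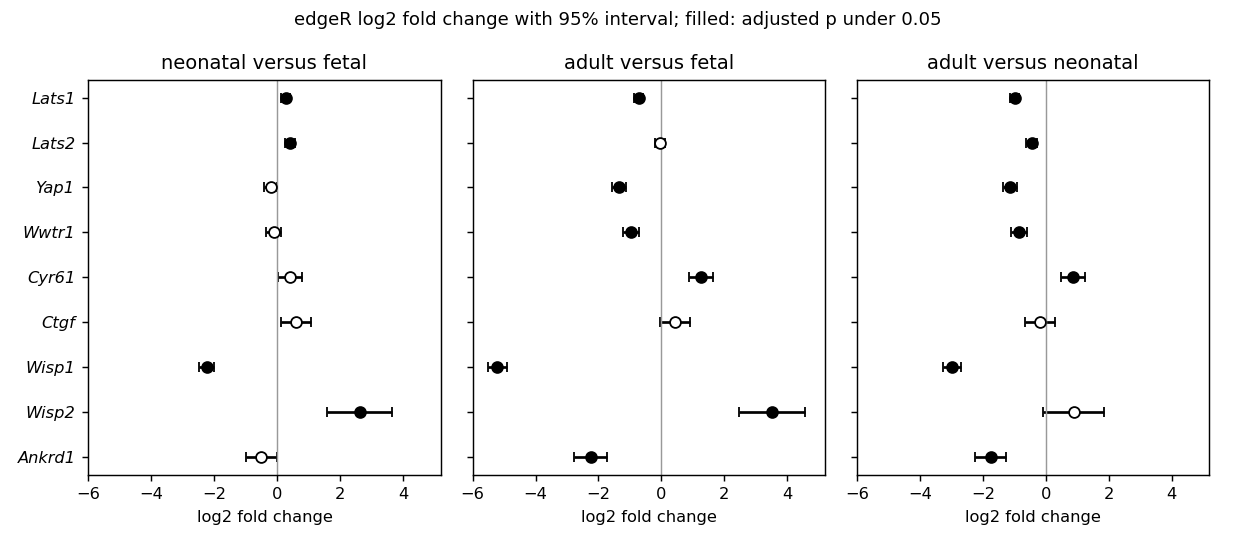
Log2 fold change of each of the 9 genes in the 3 age comparisons, with 95% intervals computed from the edgeR F statistics. Filled points have an adjusted p under 0.05. The interval of Ctgf for adult versus fetal cells, -0.05 to 0.90, includes 0, and the Wisp1 points lie furthest below 0 in each of the 3 comparisons.

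Of the kinases, Lats1 peaked in neonatal cells and was lowest in adult ones, while Lats2 was higher in neonatal than in both fetal and adult cells. Lats1 (chromosome 1, 1784078 to 1817310 in rn6) stood at 89.9, 93.3 and 85.0 CPM in fetal replicates 1 to 3, 109, 109 and 107 in neonatal and 52.1, 55.2 and 55.3 in adult libraries. The 3 ages did not overlap. Lats1 was higher in neonatal than in fetal cells by 0.27 on the log2 scale (SE 0.0588, edgeR adjusted p = 0.00729) and its adult level was 1.65-fold below the fetal one (log2 fold change -0.72, SE 0.0598, adjusted p = 4.88e-06) and 1.99-fold below the neonatal one (-0.99, SE 0.0600, adjusted p = 1.25e-06). The small neonatal rise ended with scaling by library size alone, at 0.10 with an adjusted p of 0.224, a scaling that moved the median of all genes in that comparison by -0.171.

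Lats2 (chromosome 15, 37943609 to 37983882), the paralog of Lats1, stood at 174, 176 and 180 CPM in fetal, 228, 243 and 234 in neonatal and 189, 168 and 158 in adult libraries. Every neonatal library was above every other, and the adult libraries spanned the fetal ones. Lats2 was 1.33-fold higher in neonatal than in fetal cells (log2 fold change 0.41, SE 0.0729, edgeR adjusted p = 0.00276) and 1.37-fold lower in adult than in neonatal cells (-0.45, SE 0.0731, adjusted p = 0.000488). Between adult and fetal cells it differed by -0.04, with a 95% interval of -0.21 to 0.12 and an adjusted p of 0.624, so that a change larger than 0.21 in either direction lay outside the interval. Per length, in CPM per kilobase of exon (RPKM), Lats2 exceeded Lats1 in every library, by 2.69 to 3.03 times in fetal, 3.0 to 3.2 in neonatal and 4.07 to 5.17 times in adult libraries.

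The co-activators Yap1 and Wwtr1 both fell in adult cells, after fetal and neonatal levels that were not told apart. Yap1 (chromosome 8, 6135542 to 6203579) stood at 76.7, 78.7 and 91.9 CPM in fetal, 75.8, 71.4 and 67.8 in neonatal and 34.4, 33.7 and 28.8 in adult libraries. All adult libraries lay below all others, and the neonatal ones lay just under the fetal ones. Yap1 was 2.55-fold lower in adult than in fetal cells (log2 fold change -1.35, SE 0.0984, edgeR adjusted p = 2.10e-06) and 2.22-fold lower than in neonatal cells (-1.15, SE 0.0983, adjusted p = 9.65e-06). The neonatal value differed from the fetal one by -0.20 (95% interval -0.41 to 0.01, adjusted p = 0.124).

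Wwtr1 (chromosome 2, 147577149 to 147693033) stood at 72.8, 66.4 and 57.7 CPM in fetal, 63.0, 64.9 and 54.4 in neonatal and 36.8, 32.4 and 31.5 in adult libraries. The fetal and neonatal libraries overlapped, and no adult library reached either. Wwtr1 was 1.96-fold lower in adult than in fetal cells (log2 fold change -0.97, SE 0.109, edgeR adjusted p = 3.76e-05) and 1.81-fold lower than in neonatal cells (-0.86, SE 0.109, adjusted p = 0.000117), with -0.11 between neonatal and fetal cells (95% interval -0.35 to 0.13, adjusted p = 0.440). With scaling by library size alone both co-activators were called lower in neonatal than in fetal cells, Yap1 by -0.38 (adjusted p = 0.0340) and Wwtr1 by -0.27 (adjusted p = 0.0348).

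The balance between co-activator and kinase mRNA moved in steps with age. The RPKM of Yap1 plus Wwtr1 divided by that of Lats1 plus Lats2 was 2.08, 1.99 and 2.07 in fetal, 1.51, 1.41 and 1.31 in neonatal and 1.04, 1.05 and 1.01 in adult libraries. The 3 ages did not overlap on this ratio, which is given as a description with no test. From fetal to neonatal cells Lats1 and Lats2 rose, while Yap1 and Wwtr1 differed by -0.20 and -0.11 and were not called. From neonatal to adult cells all 4 genes fell, Yap1 (-1.15) and Wwtr1 (-0.86) along with Lats1 (-0.99) and Lats2 (-0.45). Yap1 over Wwtr1 was 1.10 to 1.66 in fetal, 1.15 to 1.30 in neonatal and 0.954 to 1.09 in adult libraries.

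Among the CCN genes, Wisp1 and Wisp2 moved in opposite directions, Cyr61 rose in adult cells and Ctgf was high at all ages. Wisp1 (chromosome 7, 107695227 to 107723756), a Wnt-inducible CCN gene, stood at 161, 156 and 173 CPM in fetal, 35.8, 37.9 and 30.4 in neonatal and 3.90, 5.13 and 4.12 in adult libraries. The ages were far apart and the libraries within each close together, fetal replicate 3 included. Wisp1 was 4.69-fold lower in neonatal than in fetal cells (log2 fold change -2.23, SE 0.106, edgeR adjusted p = 3.94e-06), 7.90-fold lower in adult than in neonatal cells (-2.98, SE 0.126, adjusted p = 1.36e-07) and 37.1-fold lower in adult than in fetal cells (-5.21, SE 0.130, adjusted p = 3.46e-09).

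Wisp2 (chromosome 3, 160207969 to 160219316) encodes a CCN protein that lacks the C-terminal cystine-knot domain of the others. It stood at 168, 155 and 38.6 CPM in fetal, 743, 748 and 745 in neonatal and 1260, 1313 and 1544 in adult libraries. The ages did not overlap, and fetal replicate 3 had 24.0% of the mean of the other fetal libraries. Wisp2 was 6.19-fold higher in neonatal than in fetal cells (log2 fold change 2.63, SE 0.450, edgeR adjusted p = 0.00280) and 11.4-fold higher in adult than in fetal cells (3.51, SE 0.467, adjusted p = 0.000149). Without fetal replicate 3 these log2 fold changes were 2.21 and 3.09, both still called. Between adult and neonatal cells the difference of 0.88 was not called (95% interval -0.09 to 1.85, adjusted p = 0.100). It was called at the same size without fetal replicate 3 (0.88, edgeR adjusted p = 9.07e-07) and in a fit of the adult and neonatal libraries alone (edgeR adjusted p = 9.85e-06). That fetal library enters this comparison only through steps that all libraries share: the estimate of the spread, the filter, the scaling and the adjustment over genes.

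Cyr61 (chromosome 2, 251529354 to 251532312), an immediate early gene that encodes a secreted integrin ligand, stood at 959, 983 and 650 CPM in fetal, 1120, 1132 and 1190 in neonatal and 2492, 1831 and 1896 in adult libraries. The ages did not overlap, with adult replicate 1 the highest and fetal replicate 3 the lowest. Cyr61 was 2.40-fold higher in adult than in fetal cells (log2 fold change 1.26, SE 0.171, edgeR adjusted p = 0.000124) and 1.81-fold higher than in neonatal cells (0.85, SE 0.170, adjusted p = 0.00177). The neonatal value was 0.41 above the fetal one (95% interval 0.03 to 0.79), which did not pass over all genes (adjusted p = 0.0860).

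Ctgf (chromosome 1, 21851658 to 21854773), a secreted protein gene widely used as a marker of fibrosis, stood at 5705, 5557 and 3102 CPM in fetal, 6957, 7322 and 7479 in neonatal and 5533, 6647 and 7114 in adult libraries. Neonatal libraries were above all fetal ones, while adult libraries overlapped both. Its rank by RPKM among all 17337 genes was between 8 and 21 in the 9 libraries. Ctgf was not called in any comparison: the log2 fold change was 0.60 for neonatal versus fetal (95% interval 0.12 to 1.08, edgeR adjusted p = 0.0518), 0.43 for adult versus fetal (-0.05 to 0.90, adjusted p = 0.0972) and -0.17 for adult versus neonatal cells (-0.65 to 0.30, adjusted p = 0.492). The first of these passed with any 1 of the fetal libraries left out (0.37 and adjusted p = 0.00955 without replicate 3, 0.74 and 0.0406 without replicate 1, 0.72 and 0.0481 without replicate 2) and in DESeq2 (0.59, adjusted p = 0.0160).

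The other CCN genes were Nov and Wisp3. Nov, or Ccn3, stood at 578, 576 and 76.0 CPM in fetal, 1241, 1253 and 1229 in neonatal and 510, 482 and 465 in adult libraries, so fetal replicate 3 had 13.2% of the mean of the other fetal libraries. In edgeR, Nov was not called with all libraries (log2 fold changes 1.6, 0.25 and -1.35 for neonatal versus fetal, adult versus fetal and adult versus neonatal, edgeR adjusted p = 0.0599, 0.713 and 0.0677). Without fetal replicate 3 all 3 were called, at 1.11, -0.25 and -1.36 (edgeR adjusted p = 1.08e-07, 0.00112 and 9.22e-10), the adult versus fetal value having changed sign. In a fit of the adult and neonatal libraries alone, Nov was called lower in adult cells as well (-1.36, edgeR adjusted p = 4.04e-08). Wisp3 had 1 count in adult replicate 1 and 0 in the other libraries and was not tested.

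The make-up of the CCN transcripts differed between the ages, and is described here with no test. The RPKM summed over the 6 CCN genes was 1823 to 3507 in fetal, 4847 to 5095 in neonatal and 4706 to 5216 in adult libraries, with fetal replicate 3 the lowest. Ctgf made up 69.1 to 72.9% of it in fetal, 61.5 to 62.9% in neonatal and 50.3 to 58.6% in adult libraries. Wisp2 made up 1.22 to 2.76%, 8.43 to 8.84% and 15.4 to 17.1%, and Wisp1 2.41 to 5.07%, 0.318 to 0.403% and 0.0422 to 0.0564%. The RPKM ratio of Wisp2 to Wisp1 was 0.241 to 1.13 in fetal, 21.3 to 26.5 in neonatal and 276 to 405 in adult libraries, so the Wisp1 and Wisp2 mRNAs were near parity in fetal replicates 1 and 2 (1.13 and 1.07) and far apart later. Ctgf over Cyr61 was 4.06 to 5.06 in fetal, 5.28 to 5.50 in neonatal and 1.89 to 3.19 in adult libraries.

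**Figure D3:**
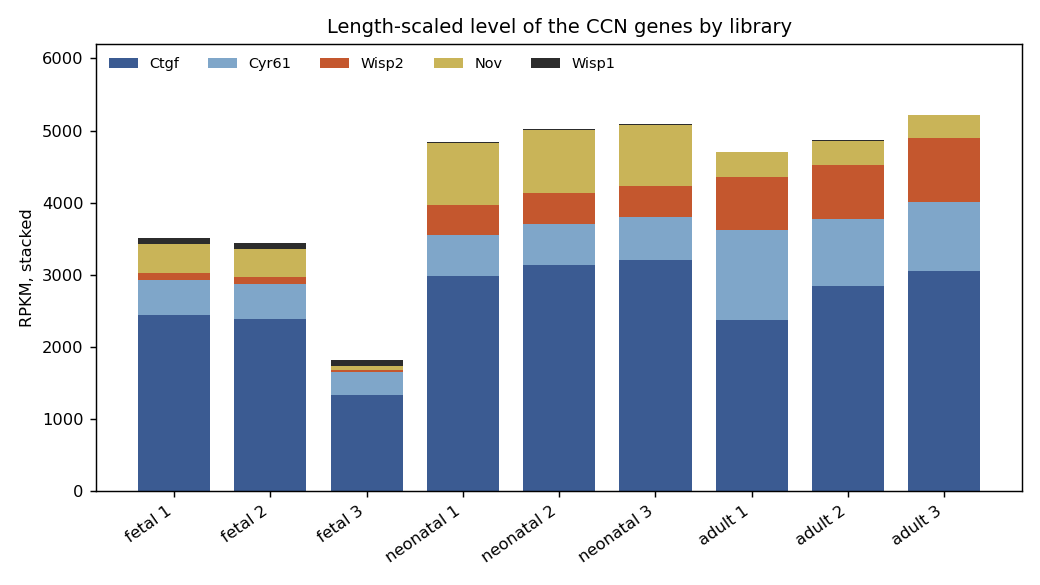
RPKM of 5 CCN genes (Ctgf, Cyr61, Wisp2, Nov and Wisp1), stacked, with 1 bar for each of the 9 libraries and an axis from 0. Ctgf is the largest part of every bar, the bar of fetal replicate 3 is the lowest, and the Wisp2 part goes from 1.22 to 2.76% of the sum in fetal to 15.4 to 17.1% in adult libraries.

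In fetal replicate 3 the 9 genes did not shift together. Relative to the mean of fetal replicates 1 and 2 its CPM was 24.0% for Wisp2, 55.1% for Ctgf and 66.9% for Cyr61, but 82.9% for Wwtr1, 90.4% for Ankrd1, 92.8% for Lats1, 103% for Lats2, 109% for Wisp1 and 118% for Yap1. Col1a1 and Col3a1 summed to 22094 CPM in that library, against 48878 and 46045 in the other fetal ones, and the other 8 fibroblast markers to 1561 against 1558 and 1613. Of all 10 fibroblast markers, 8 lay below both other fetal libraries and 2 (Pdgfra and Postn) above. The macrophage markers summed to 69.0 CPM against 15.2 and 14.9, 11 of 12 being above both, and the mural cell markers to 1058 against 1897 and 1920, 7 of 8 being below both. Of the 5 epicardial or mesothelial markers Krt8 alone was above both, at 144 CPM against 10.2 and 11.3. Their part in the low Wisp2, Ctgf and Cyr61 was not tested.

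Ankrd1 (chromosome 1, 254726994 to 254735545) encodes a titin-binding repeat protein of the cardiac sarcomere and nucleus, and is a YAP target in many cell types. It stood at 1852, 1963 and 1725 CPM in fetal, 1265, 1291 and 1360 in neonatal and 560, 286 and 316 in adult libraries. The ages did not overlap, with adult replicate 1 well above the other adult libraries. Ankrd1 was 4.77-fold lower in adult than in fetal cells (log2 fold change -2.25, SE 0.228, edgeR adjusted p = 2.09e-05) and 3.37-fold lower than in neonatal cells (-1.75, SE 0.224, adjusted p = 0.000132). The neonatal value lay 0.50 below the fetal one on the log2 scale (95% interval -0.99 to -0.01) and was not called (adjusted p = 0.102). It passed without adult replicate 1 (adjusted p = 0.00207), in a fit of the fetal and neonatal libraries alone (0.00447), with library size alone (-0.67, 0.0269) and in DESeq2 (0.0479).

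Cardiomyocyte markers fell over the same ages, and their part in the Ankrd1 result was not tested. All 12 markers found in the table were called lower in adult than in fetal cells, and 5 of them (Myh6, Myh7, Csrp3, Myl2 and Myl7, sarcomere genes) had at most 3 counts in every adult library. Tnnt2 alone stood at 303 to 316 CPM in the adult libraries, and the other 11 markers summed to 2.14 to 4.79 CPM there, against 5131 to 8085 in fetal and 3524 to 4059 in neonatal libraries. The ratio of Ankrd1 to the summed CPM of the 12 markers was 0.180 to 0.237 in fetal, 0.237 to 0.245 in neonatal and 0.914 to 1.83 in adult libraries. In the adult libraries nearly all of that sum was Tnnt2, so the adult ratio and the earlier ones rest on different markers. Adult replicate 1, with the highest adult Ankrd1 and Cyr61, also had the lowest adult sum of mural cell markers (294 CPM, against 564 and 603, with 5 of 8 below both other adult libraries and 3 above) and of macrophage markers (4176, against 5081 and 5831, with 10 of 12 below both and 2 above). Their part in these levels was not tested.

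**Figure D4:**
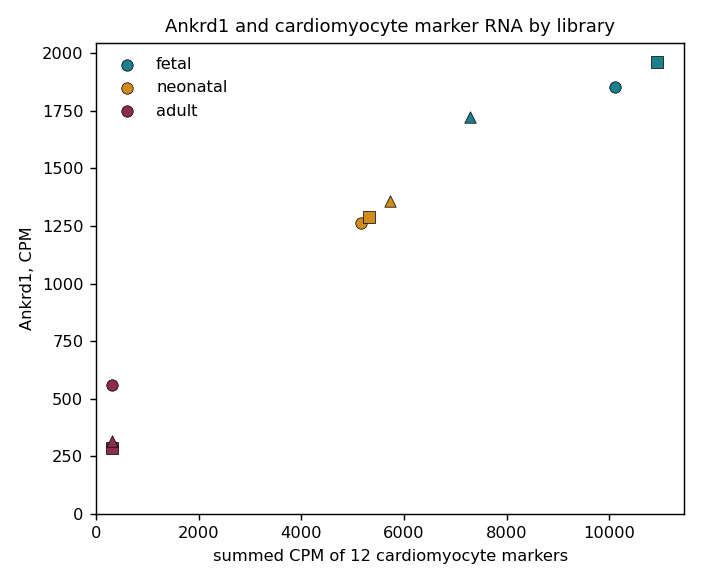
Ankrd1 level against the summed level of the 12 cardiomyocyte markers, both in CPM on linear axes from 0; each point is 1 of the 9 libraries, coloured by age, with a marker shape for each replicate number. The adult libraries lie at 305 to 320 CPM of markers, nearly all of it Tnnt2, and 286 to 560 CPM of Ankrd1, apart from the fetal and neonatal ones.

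Ordered by RPKM, Ctgf, Ankrd1 and Cyr61 stood above the kinases and co-activators at all 3 ages. In fetal cells Ctgf (2051 ± 626, SD, n = 3) was followed by Ankrd1 (1060 ± 68.3) and Cyr61 (435 ± 93.7), whose libraries did not overlap their neighbours, then Wisp1 (87.2 ± 4.80), Wisp2 (69.4 ± 41.0), Yap1 (56.0 ± 5.60), Wwtr1 (42.7 ± 4.92), Lats2 (35.6 ± 0.671) and Lats1 (12.6 ± 0.589). The Wisp1 and Wisp2 libraries overlapped, and in fetal replicate 3 Wisp2, at 22.3 RPKM, lay below Yap1, Wwtr1 and Lats2. In neonatal cells Ctgf (3106 ± 115) was followed by Ankrd1 (749 ± 28.3), Cyr61 (578 ± 18.8), Wisp2 (430 ± 1.38), Yap1 (48.7 ± 2.73) and Lats2 (47.4 ± 1.47), which overlapped, Wwtr1 (39.5 ± 3.61), Wisp1 (18.5 ± 2.08) and Lats1 (15.2 ± 0.168). In adult cells Ctgf (2754 ± 348) was followed by Cyr61 (1045 ± 184), Wisp2 (792 ± 87.1), Ankrd1 (222 ± 86.0), Lats2 (34.6 ± 3.17), Yap1 (21.9 ± 2.08) and Wwtr1 (21.8 ± 1.85), which overlapped, Lats1 (7.65 ± 0.257) and Wisp1 (2.34 ± 0.350). Wisp1 was thus last in adult cells, and Wisp2 stood behind Ctgf and Cyr61. In fetal cells their order rested on replicate 3, without which the means were 84.5 RPKM for Wisp1 and 93.0 for Wisp2.

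Of the other regulators of the pathway, more were called lower than higher in adult cells. Of 26 upstream and core regulators listed, 21 were in the table and tested. Between adult and fetal cells 12 were lower and 4 higher (Sav1, Mob1a, Taok3 and Map4k4), with a median log2 fold change of -0.57. Between adult and neonatal cells 12 were lower and 5 higher (median -0.42), and between neonatal and fetal cells 4 were lower and 3 higher (median 0.03). Over all tested genes 35.5%, 31.8% and 18.0% were called lower in these 3 comparisons. The regulators with the smallest p over the ages were Fat4, an atypical cadherin that acts upstream of the pathway, and Strn3, a subunit of the STRIPAK phosphatase complex that opposes the MST kinases. Fat4 fell with age, at 85.0 ± 5.10 (fetal), 49.6 ± 5.04 (neonatal) and 4.55 ± 0.470 CPM (adult; SD, n = 3), with an adult versus fetal log2 fold change of -4.22 (edgeR adjusted p = 5.73e-09), and Strn3 stood at 139 ± 9.52, 139 ± 3.07 and 68.6 ± 4.83 CPM (-1.01, adjusted p = 2.18e-06).

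Of the DNA-binding partners of YAP and TAZ, Tead1 and Tead2 were much lower in adult than in fetal cells and Tead3 slightly lower. Tead4 was not in the table. Of 8 TEAD and VGLL genes listed, 5 were in the table and 4 were tested, and 3 of these were called lower in adult than in fetal cells (median of the 4, -1.13), where 35.5% of all tested genes were called lower. Tead1 stood at 73.7 ± 8.94, 62.0 ± 5.83 and 18.1 ± 2.66 CPM (SD, n = 3) in fetal, neonatal and adult cells (adult versus fetal -2.03, edgeR adjusted p = 1.09e-06), and Tead2 at 82.2 ± 9.72, 45.8 ± 1.77 and 13.5 ± 1.23 CPM (-2.61, adjusted p = 6.18e-08). Tead3 stood at 97.1 ± 7.20, 94.3 ± 1.65 and 82.8 ± 3.70 CPM (-0.23, adjusted p = 0.0142). Vgll4, whose protein competes with YAP for TEAD factors, was not called in any of the 3 comparisons (23.9 ± 3.09, 27.1 ± 2.30 and 23.0 ± 3.10 CPM), and Vgll2 was not tested for its low counts. Between neonatal and fetal cells 1 of the 4, Tead2, was called (-0.84, edgeR adjusted p = 0.000307), where 36.3% of all tested genes were called.

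Of 18 other genes known as YAP and TAZ targets, 14 were in the table and tested. Between adult and fetal cells 5 were lower and 4 higher (median -0.01), between adult and neonatal cells 6 were lower and 5 higher (median -0.18), and between neonatal and fetal cells 3 were lower and 4 higher (median 0.10). These are 64.3%, 78.6% and 50% of the 14, against 70.5%, 63.5% and 36.3% of all tested genes, and nothing particular to the list is read from them. Nt5e, the ecto-enzyme CD73 that makes adenosine, rose at each age, from 17.1 ± 1.06 CPM (SD, n = 3) through 77.5 ± 0.233 to 203 ± 20.4 CPM (adult versus fetal 3.56, edgeR adjusted p = 3.46e-09). Ptpn14, a phosphatase that binds YAP, fell from 43.6 ± 1.87 to 12.2 ± 1.45 CPM between the same ages (-1.84, adjusted p = 1.24e-06), with 33.2 ± 4.40 CPM in neonatal cells.

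**Figure D5:**
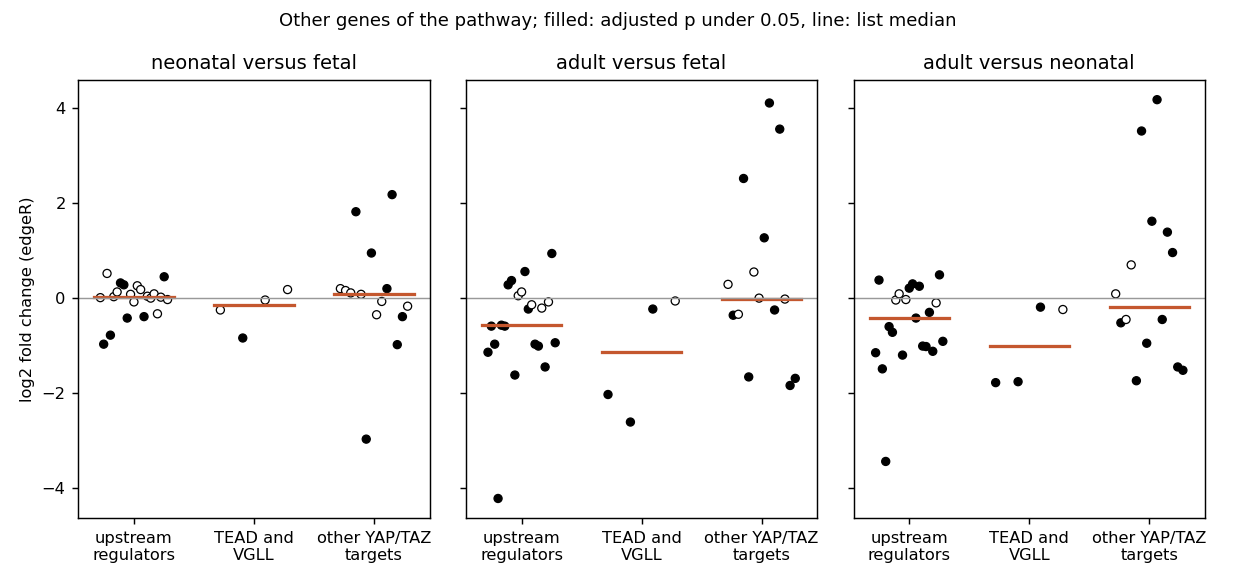
Log2 fold change of each tested gene of the lists of Hippo regulators, TEAD and VGLL genes and other YAP and TAZ targets, in the 3 age comparisons; each point is 1 gene, filled where the edgeR adjusted p is under 0.05, and the line is the list's median. For adult versus fetal cells the medians lie at -0.57, -1.13 and -0.01.

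For each of the 9 genes the gene of most similar pattern was taken as the one with the highest Pearson correlation of log2 CPM over the 9 libraries, among 8314 other genes with a mean of at least 10 CPM. That of Yap1 was Tead1 (r = 0.997), its own DNA-binding partner. It was Tnfaip1 for Lats1 (r = 0.997), Usp8 for Lats2 (0.984), Tulp4 for Wwtr1 (0.994), Slit3 for Cyr61 (0.995), Cmklr1 for Ctgf (0.989), Tmod1 for Wisp1 (0.998), Stim1 for Wisp2 (0.996) and Uba6 for Ankrd1 (0.994). Such values are common over 3 ages of 3 libraries: 818 genes reached 0.95 with Yap1, 603 with Wisp1, 491 with Ankrd1, 470 with Wwtr1, 415 with Cyr61, 338 with Lats1 and 292 with Wisp2, but 35 with Ctgf and 10 with Lats2. Lats2, with its neonatal peak, had the fewest genes of like pattern.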

How the data were processed

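RNA of cultured rat cardiac fibroblasts, in 9 libraries, 3 per age, was analysed from gene counts. The deposited counts were made by the authors with featureCounts 1.6.3 and an rn6 annotation, per the file headers, and Trimmomatic 0.39 and STAR 2.5.2b are named in the submitters' processing notes. The program line in the header sets no strand option, so reads of antisense partners cannot be told apart, and 0 genes in the table shared exon bases with any of the 9 genes. Exon length came from the same deposited table. A deposited table of normalized signal equalled those counts divided by 1 size factor per library, within a relative tolerance of 1e-06 for 100% of values, and was used for that check alone.

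Counts were fitted in edgeR 4.0.16 (R 4.3.3) over all 9 libraries with age as the only term, TMM scaling, filterByExpr and the quasi-likelihood F test, with Benjamini-Hochberg adjustment over 11337 genes and a threshold of 0.05. CPM used TMM-scaled library sizes, RPKM divided CPM by exon length in kilobases, and correlations were taken on log2 CPM with 2 as the prior count. The code was tested on simulated counts. Alternatives were DESeq2 1.42.0, its size factors, library size alone, no filter, a replicate block, each library left out and fits of 2 ages.

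The 9 genes and the lists were chosen with earlier results of these data known. Of each list the 2 genes with the smallest adjusted p over the ages were named, and for lists of at most 8 genes every gene found; the names of the higher regulators and of other targets were added after their values were seen. Fold changes are of fitted counts. Depth was 13392825 to 22850491 counts per library. Gene positions are in rn6 from the count table, and promoter positions in GRCr8 from RefSeq; 4 of the 9 genes have newer symbols there. Promoters of Lats2, Wisp1, Wisp2 and Ankrd1 were not analysed here.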

Additional observations from a re-analysis of the deposited data

How the results depend on the processing

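Over 15 alternatives, 20 of the 27 gene-by-comparison results of the 9 genes kept their direction and their side of the threshold under every one. Of the 18 that were called, 17 stayed called throughout, the exception being Lats1 between neonatal and fetal cells with library size alone. The number of the 9 genes called ranged from 4 to 6 for neonatal versus fetal, was 7 throughout for adult versus fetal and ranged from 7 to 8 for adult versus neonatal cells. Leaving out 1 library in turn gave 2476 to 4679 genes called between neonatal and fetal cells, against 4114 with all, the lowest counts being 2607, 2476 and 2575 without neonatal replicates 1, 2 and 3; the cause was not tested. Scaling by library size alone moved the median of all genes by -0.171, -0.110 and 0.0598 (neonatal versus fetal, adult versus fetal, adult versus neonatal) and put 29.0%, 43.4% and 54.0% of called genes higher, against 50.4%, 49.5% and 49.8%; with it 3 of the 4 TEAD and VGLL genes were called between neonatal and fetal cells, against 1.

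The direction changed for values near 0, and for Nov between adult and fetal cells. Strn3 between neonatal and fetal cells was -0.01 in DESeq2, with DESeq2's size factors and without neonatal replicate 2, -0.17 with library size alone, -0.02 without fetal replicate 1 and -0.04 without fetal replicate 3, against 0.00, and ranged from -0.04 to 0.06 over the libraries left out. Tead3 was 0.01 there without fetal replicate 1 (range over left-out libraries -0.09 to 0.01). Between adult and fetal cells Vgll4 was 0.05 without fetal replicate 3 and 0.03 without adult replicate 3 (range -0.16 to 0.05). In the same comparison Lats2 was 0.02 without adult replicate 3 (range -0.11 to 0.02). Nov was 0.25 there with all libraries and not called (range -0.25 to 0.57). Without fetal replicate 3, which had 13.2% of the mean Nov level of the other fetal libraries, it was called at -0.25 (edgeR adjusted p = 0.00112). For these changes of direction the cause was not tested. The call of Tead3 between adult and neonatal cells (-0.19, edgeR adjusted p = 0.0386) was lost without any 1 of the neonatal or adult libraries, where its log2 fold change ranged from -0.21 to -0.15, and that of Ptpn14 between neonatal and fetal cells (-0.39, edgeR adjusted p = 0.0265) without fetal replicate 1 (-0.36) or any 1 neonatal library (-0.44 to -0.27). Vgll4 was called between adult and neonatal cells without adult replicate 1 (-0.35, edgeR adjusted p = 0.0446), and Nov between neonatal and fetal cells in DESeq2 (1.59, adjusted p = 0.0403).

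No pairing of the libraries by replicate number was seen. Of 9 same-numbered pairs 0 had a correlation of deviations over 0.1 (range -0.0649 to 0.0521), and 4 of 9 libraries correlated best with their own number. The deviations are from a mean of only 3 libraries per age, so these correlations cannot exclude a pairing. With the replicate block 3713, 7801 and 6985 genes were called in the 3 comparisons, and 4, 7 and 7 of the 9 genes. No call of the 9 genes changed, while those of Ptpn14 (-0.39, edgeR adjusted p = 0.0518) and Tead3 (-0.19, edgeR adjusted p = 0.0715) named above were lost. Depth limits what can be said of Wisp3 and Vgll2, which were not tested, and of Wisp1 in adult cells.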

Other observations

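Of the other YAP and TAZ targets called higher in adult than in fetal cells, Ccdc80 stood at 2129, 7508 and 12205 CPM in fetal, neonatal and adult cells (means, n = 3; adult versus fetal log2 fold change 2.52, edgeR adjusted p = 0.000167) and Igfbp3, which encodes an IGF-binding protein, at 102, 97.3 and 1764 CPM (4.11, edgeR adjusted p = 0.000223). F3, the tissue factor gene, dipped in neonatal cells, with 263, 33.5 and 384 CPM (neonatal versus fetal -2.97, edgeR adjusted p = 0.000685; adult versus neonatal 3.52, edgeR adjusted p = 6.65e-05). Crim1 was 353, 372 and 112 CPM (adult versus fetal -1.66, edgeR adjusted p = 3.89e-06) and Tgfb2, the growth factor gene, 443, 392 and 137 CPM (-1.69, edgeR adjusted p = 0.000196). The fetal means of these genes mix replicate 3 with 2 libraries unlike it. In fetal replicates 1 to 3 Igfbp3 stood at 53.8, 53.9 and 198 CPM, F3 at 174, 168 and 446, and Ccdc80 at 2659, 2772 and 956. Crim1 stood at 398, 390 and 271 CPM there, and Tgfb2 at 499, 512 and 318. The neonatal Igfbp3 libraries, at 95.5 to 100 CPM, lay between fetal replicate 3 and the others. Adult Igfbp3 ranged from 1031 to 2624 CPM. The genes of this paragraph were chosen after their values were seen.

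Of the 8 mural cell markers, 7 (Rgs5, Myh11, Cspg4, Des, Abcc9, Notch3 and Mcam) were called lower in adult than in neonatal cells, where 31.8% of all tested genes were, and Kcnj8 differed by 0.03 (edgeR adjusted p = 0.951). Of the 5 epicardial or mesothelial markers in the table, Msln, Krt19 and Tbx18 were called lower and Wt1 higher in the same comparison, and Krt8 was not called (-1.40, edgeR adjusted p = 0.435).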
